A study of Rattus norvegicus with 16 samples.

Results

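Unnamed transcribed loci are stretches of the rat genome from which RNA of the heart was read and assembled, but to which the authors' tables give no gene symbol. They were taken as the loci whose gene entry was only a dash or empty at week 2, whose test status was OK at weeks 2, 4, 5 and 7, and whose abundance reached 1 in at least 1 of both groups in every week. Of 22861 loci listed, 5676 had no symbol, and 2172 of these (38.3%) met the status and abundance conditions. The loci set beside them are the 9527 named loci, of 17162 with a symbol (55.5%), that met the same conditions. A further 23 loci carried symbols turned into dates by a spreadsheet and were put in neither set. The members were thus selected on status and abundance, measured in the same libraries, so their levels are given as a description and without a test.

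The samples were left ventricles of male Sprague Dawley rats on 0.4% Dyets chow, operated at 10 weeks of age. One group per time had 5/6 nephrectomy (5/6Nx), an excision of most kidney tissue that serves as a model of chronic kidney disease, with tissue taken at week 2, 4, 5 or 7 from surgery. The other had sham surgery, with tissue taken at the same 4 times. Each of the 8 groups had 2 libraries, and from 2 to 3 rats were pooled for each.

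A transcript assembler joins overlapping reads into transcripts and gathers them into loci with running numbers (XLOC identifiers). A locus gets a symbol only where it meets a gene of the annotation that was supplied, so a locus without one can be an unannotated coding gene, a long or short noncoding RNA, a pseudogene or retained repeat, or an untranslated stretch cut off from its gene. The rn5 rat assembly on which these loci lie is an early one, and the gene annotation of the rat has been revised and extended with later assemblies.

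The tables gave 1 abundance per group, week and locus, taken as FPKM, the fragments of a transcript divided by its length and by the depth of the library. There was no value per library, so overlap between the pools of a group could not be looked at. A locus is called here where the authors' deposited table marked its difference between 5/6Nx and sham as significant. The standard error beside a log2 difference was derived from that log2 and the deposited p-value, and is not a measured spread between pools. It can be very small where the log2 is near 0. XLOC_012126, for example, had 0.113 at week 4, with a log2 of -0.009, and 2.09 at week 5. Where p is at its smallest deposited value, 5e-05, the standard error is an upper bound. FPKM divides by transcript length, so a short locus reaches a given FPKM with fewer fragments than a long one.

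The 5/6Nx library of week 7 called pool 2 had the fewest reads, 23.6 M (mega reads), and all others had between 44.5 and 61.8 M. Of the ventricular myocyte markers, 7 of 8 were listed and their summed level ran from 39393 to 109356 FPKM over the 5/6Nx groups and from 50611 to 110596 FPKM over the sham groups. Myh6 and Myh7 shared 1 locus, and Ttn had no row under its symbol. At week 7 the deposited test statistic had the sign opposite to the abundance columns in all 2168 members that could be compared, and in none at the other weeks. Directions below follow the names of the columns, and every direction at week 7 would turn if those names were exchanged.

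Unnamed loci were lower in level than named loci but reached far into the range of abundant transcripts. The mean of the 8 group values had a median of 6.07 FPKM over unnamed loci (quartiles 3.02 and 14.2) and of 13.0 FPKM over named loci (quartiles 5.62 and 33.1). A mean of at least 10 FPKM was reached by 731 unnamed loci (33.7%), against 5520 named loci (57.9%), and one of at least 100 FPKM by 74 (3.41%), against 872 (9.15%). At the lower end, 239 of the 2172 unnamed loci and 362 of the 9527 named loci had a mean under 2 FPKM. Within single weeks the median unnamed locus lay between 4.78 and 6.27 FPKM in 5/6Nx ventricles and between 4.91 and 6.70 FPKM in sham ventricles.

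The condition on abundance left out 190 unnamed loci whose status was OK in all weeks, each with both groups below 1 FPKM in at least 1 week. Just inside, the larger of both group values in the lowest week was 1.00 FPKM for XLOC_007829 and XLOC_012810, and 1.01 FPKM for XLOC_019892, XLOC_015925 and XLOC_006126. Just outside, it was 0.999 FPKM for XLOC_007589, 0.997 for XLOC_014821, 0.996 for XLOC_013886, and 0.992 for XLOC_022246 and XLOC_002994. XLOC_007589 stood outside through week 5 alone, with 0.801 FPKM in 5/6Nx and 0.999 FPKM in sham, while its other 6 values lay between 4.52 and 8.41 FPKM. Of the 2172 members, 1938 were at 1 FPKM or more in both groups of every week, and 234 passed in some week through only 1 group.

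**Figure D1:**
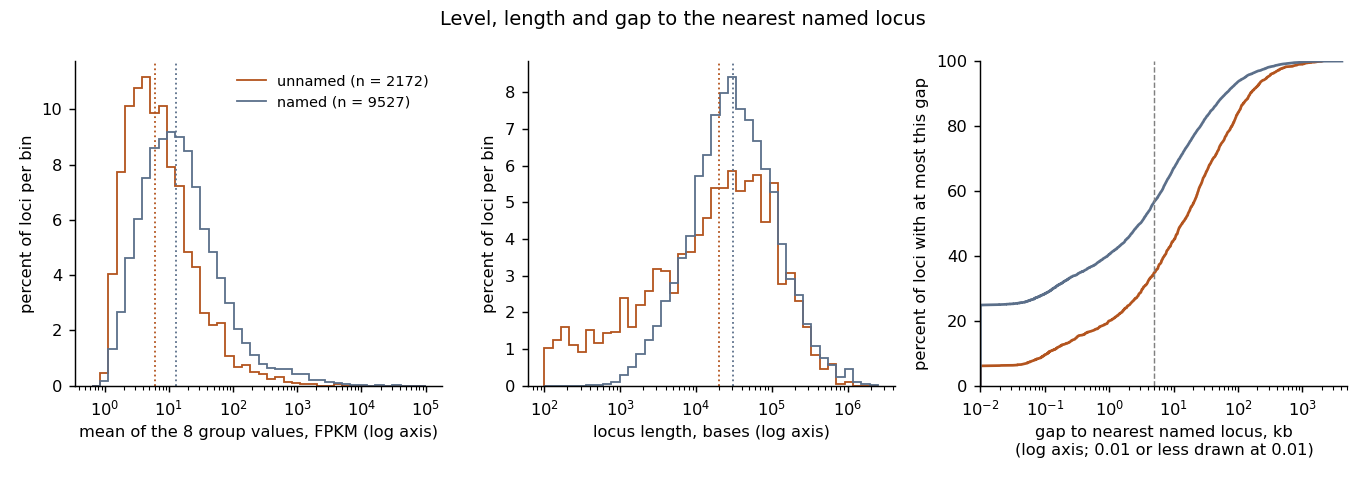
Left, percent of unnamed (orange) and named (blue) loci per bin of mean FPKM; middle, per bin of locus length; right, cumulative percent of loci by the gap to the nearest named locus, with a dashed line at 5 kb. Dotted lines are medians: 6.07 against 13.0 FPKM, and 20.2 against 30.5 kb. The unnamed loci show a tail of short lengths that the named loci lack.

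The most abundant unnamed loci were mostly very short. Of the 10 with the highest mean level, 7 spanned up to 600 bases and 5 up to 200 bases. The highest was XLOC_012150, 168 bases long at chr2:130024366-130024534 (rn5) and 0.633 kb from the locus named LOC499584. It had 3676, 4338, 6392 and 4895 FPKM in 5/6Nx ventricles at weeks 2, 4, 5 and 7, against 4695, 4517, 6378 and 5019 FPKM in sham ventricles. Its values were thus lower in 5/6Nx at weeks 2, 4 and 7 and nearly equal at week 5, and none of these differences was called. XLOC_017611, 136 bases long at chr5:155474307-155474443, had 1935, 1731, 2256 and 883 FPKM in 5/6Nx, against 1955, 2004, 2494 and 1399 FPKM in sham. It lay 5.72 kb from Nr0b2, a nuclear receptor without a DNA-binding domain, and was lower in 5/6Nx in every week without a call.

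Longer loci were also found among the 10 highest. XLOC_003372, which spans 79.1 kb at chr10:43243199-43322301 and shares its coordinates with other identifiers, averaged 1017 FPKM. XLOC_018502, at chr6:21616692-21709281, averaged 726 FPKM and shares its coordinates with Fbxo11, an F-box protein of a ubiquitin ligase. XLOC_011714, at chr2:159933883-159939631, averaged 602 FPKM and lay between Osap and Naa15, a subunit of an N-terminal acetyltransferase. The only protein-coding gene between those flanks in the later GRCr8 assembly that matched no symbol of the tables is Ndufc1, a subunit of mitochondrial complex I. None of the 10 was called in any week.

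In length the unnamed loci were more mixed than the named ones. Their median was 20.2 kb, against 30.5 kb for named loci, and the lower quartiles were 3.88 and 13.2 kb. The sets differed most in short loci: 252 unnamed loci (11.6%) spanned up to 1000 bases, against 17 named loci (0.178%), and 73 unnamed loci spanned up to 200 bases, against 0 named loci. Among all loci of the tables, 228 named ones were that short. Every one of these had a microRNA symbol, and none had the status OK in all weeks, so the status condition kept them out. At the other end, 340 unnamed loci (15.7%) and 1713 named loci (18.0%) spanned over 100 kb.

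The shortest members were XLOC_016107 (100 bases), XLOC_022028 and XLOC_022810 (101 bases each), XLOC_022818 (102 bases) and XLOC_018501 (107 bases). Their mean levels ran from 134 to 1045 FPKM, all far above the median member. Values of such loci moved widely from week to week. XLOC_018501, which lies 24.5 kb from the calmodulin gene Calm2, had 15.7, 118, 306 and 75.2 FPKM in 5/6Nx, against 119.9, 219, 153 and 63.5 FPKM in sham. It was below sham at weeks 2 and 4 and above it at weeks 5 and 7, and no difference was called. The longest members were XLOC_007934 and XLOC_008337, which share the same 1004 kb at chr15:105607983-106611838 between Gpc5, a cell-surface glypican, and Tgds. They averaged 10.4 and 12.7 FPKM.

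Unnamed loci stood farther from named loci than named loci stood from each other. The gap to the nearest named locus had a median of 13.7 kb for unnamed loci, against 3.05 kb for named loci and their nearest other named locus. A gap under 5 kb, overlaps included, was found for 756 unnamed loci (34.8%) and 5401 named loci (56.7%), and one over 50 kb for 594 (27.3%) and 1181 (12.4%). Overlap with a named locus was seen for 131 unnamed loci (6.03%), against 2337 named loci (24.5%), and all 131 had exactly the coordinates of a named locus. In these tables loci whose transcripts overlap are given 1 common interval, so equal coordinates do not separate the strands or positions of the transcripts inside. In all, 516 unnamed loci (23.8%) and 2549 named loci (26.8%) shared their coordinates with some other identifier.

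By chromosome, the unnamed share of all loci that met the conditions was lowest on chromosome 20, with 45 unnamed beside 314 named loci (12.5%), and highest on chromosome 17, with 86 beside 262 (24.7%). Over the genome it was 18.6%.

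The order of genes in GRCr8, with RefSeq annotation, was used to list what lies between the named loci that flank each member. Both flanks could be matched in order for 2063 of 2172 members (94.98%). Between them, 375 members had 0 protein-coding genes that matched no symbol of the tables, 766 had 1, 454 had 2 and 468 had 3 or more. The same step was run on 9137 named loci as if they had no name. Their own gene lay between the flanks for 8310 (90.9%), and where exactly 1 candidate was left (4735 loci) it was the own gene for 96.9%. Named loci all have a gene in an annotation and unnamed loci need not, so those shares do not carry over to the members. The tables tie no unnamed locus to any of these genes, and below they are given as neighbours in the later assembly only.

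Ttn, which encodes the giant sarcomere protein titin, is an example among the defining markers of the ventricular myocyte. In GRCr8, Ttn and Ccdc141 lie between the flanks of 5 members, XLOC_013194, XLOC_014020, XLOC_014021, XLOC_014022 and XLOC_014023, which together cover chr3:70138612-70594721 with breaks. Their mean levels were 95.1, 206, 49.96, 3.91 and 42.2 FPKM in that order. XLOC_014021 had 25.7, 24.9, 22.1 and 82.9 FPKM in 5/6Nx ventricles, against 32.8, 29.9, 24.97 and 156 FPKM in sham ventricles. XLOC_014023 had 37.3, 38.2, 27.1 and 44.2 FPKM in 5/6Nx, against 44.3, 38.0, 26.9 and 81.4 FPKM in sham. At week 7, 4 of the 5 were lower in 5/6Nx, with log2 from -0.92 to -0.30, and that of XLOC_013194 was 0.03. None was called, and the loci share coordinates with other identifiers.

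Between 5/6Nx and sham, the typical unnamed locus differed little in every week. The median log2 of 5/6Nx over sham was -0.05, -0.03, -0.02 and -0.05 at weeks 2, 4, 5 and 7 for unnamed loci, against -0.02, -0.03, 0.01 and 0.00 for named loci. The share above sham was 39.5%, 45.9%, 46.4% and 45.2% of unnamed loci in those weeks, against 44.4%, 43.6%, 51.3% and 50.1% of named loci. The quartiles of the unnamed loci lay 0.27, 0.32, 0.30 and 0.61 apart on the log2 scale, against 0.20, 0.23, 0.21 and 0.52 for named loci. The derived standard errors were also larger for unnamed loci, with weekly medians of 0.26, 0.23, 0.25 and 0.38, against 0.21, 0.18, 0.20 and 0.32. No difference between both sets was tested.

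**Figure D2:**
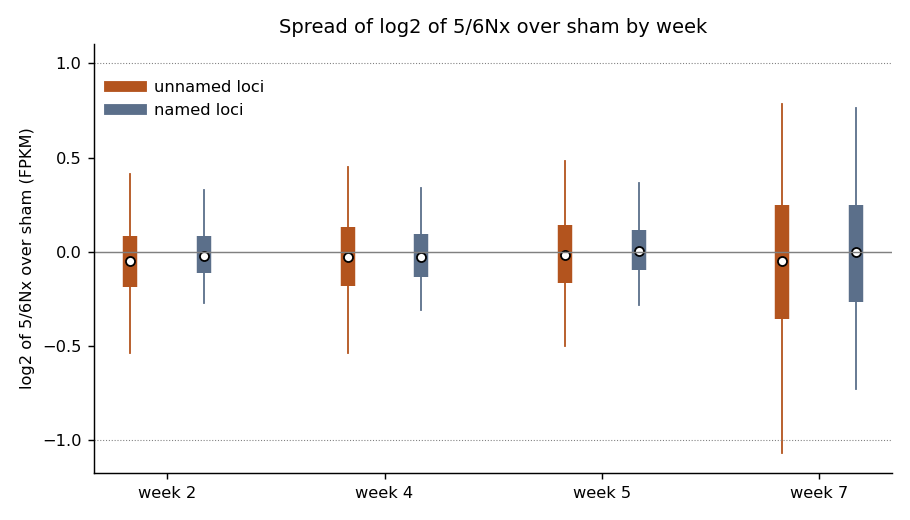
Log2 of 5/6Nx over sham by week for unnamed loci (orange, left of each pair) and named loci (blue). Thick bars span the quartiles, thin lines the 5th to 95th percentiles and circles mark medians, with dotted lines at a 2-fold difference. Week 7 is the widest in both sets, with a 5th percentile of -1.07 for unnamed loci against -0.73 for named loci.

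Differences of at least 2-fold were more frequent among unnamed than among named loci in each week. At week 2 there were 35 unnamed loci (1.61%), against 31 named loci (0.325%), and the share over all tested loci was 1.74%. At week 4 there were 33 (1.52%), against 31 named loci (0.325%), with 1.79% over all tested loci. At week 5 there were 42 (1.94%), against 70 named loci (0.735%), with 2.42% overall. At week 7 there were 181 (8.35%), against 467 named loci (4.90%), with 8.58% overall. Of these, 56 unnamed loci (2.58%) were higher in 5/6Nx, against 275 named loci (2.89%) and 4.34% of all tested loci. Lower were 125 unnamed loci (5.77%), against 192 named loci (2.02%) and 4.24% of all tested loci. The members' shares over both directions thus lay close to those of all tested loci, which include loci of low level that failed the abundance condition, while at week 7 the share higher was below that of all tested loci and the share lower above it.

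Large ratios went with short length in both sets. At week 2, 9.59% of the unnamed loci up to 200 bases and 5.59% of those longer than that and up to 1000 bases were at least 2-fold apart, against 0.798% of those from 20 to 100 kb. At week 7 the same classes had 16.9%, 20.1% and 5.46%. Named loci from 20 to 100 kb had 0.229% at week 2 and 3.75% at week 7. The shares also differed by level. At week 7, 14.6% of the unnamed loci with a mean under 2 FPKM were at least 2-fold apart, against 14.9% of named loci of that level. From 10 to 50 FPKM it was 5.24% of unnamed loci, against 3.27% of named loci. Of the 252 members up to 1000 bases, 1 was called in any week, at week 7. In that week 22 of all 2172 members and 1.75% of all tested loci were called. At weeks 4 and 5 it was 0 of the 252, against 0.334% and 0.55% of all tested loci. Whether short members were called less often was not tested.

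**Figure D3:**
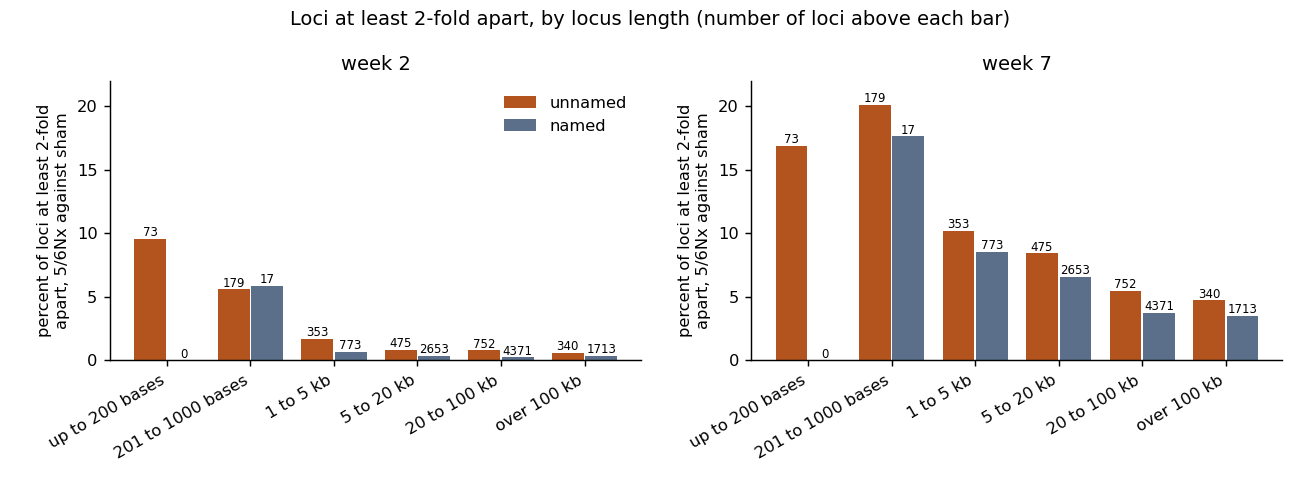
Percent of loci with at least a 2-fold difference between 5/6Nx and sham, by locus length, at week 2 (left) and week 7 (right), for unnamed (orange) and named (blue) loci, with the number of loci above each bar. Week 7 shares fall with length in both sets from 1 kb upward, to 4.71% of unnamed loci over 100 kb at week 7, against 3.50% of named loci.

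The most extreme ratios of weeks 2, 4 and 5 were mostly of loci up to 1000 bases or of loci that share coordinates (7, 8 and 8 of 10), and those of week 7 less so (4 of 10). XLOC_013661 had the lowest log2 at week 2, with 0.0505 FPKM in 5/6Nx and 15.0 FPKM in sham. It shares its interval at chr3:165905599-165969225 with Jph2, which encodes the junctophilin that holds cardiac dyads together. At weeks 4, 5 and 7 it had 4.68, 61.1 and 14.4 FPKM in 5/6Nx, against 11.8, 51.8 and 30.8 FPKM in sham. Its log2 at week 2, -8.21, had a standard error of 4.77 and was not called. XLOC_012233, 262 bases long, had the highest log2 at week 5 (4.17, standard error 3.61) with 5.30 FPKM in 5/6Nx and 0.293 FPKM in sham, and stood at 0.870 against 3.52 FPKM at week 7. Of the 10 most extreme members per week, 5 at week 2, 7 at week 4, 7 at week 5 and 2 at week 7 spanned up to 1000 bases, and 0, 1, 1 and 2 of the 10 were called.

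In 6 members 1 group was listed at 0 in some week, and no ratio was formed there. XLOC_008483, which averaged 91.4 FPKM, had 125, 102 and 138 FPKM in 5/6Nx at weeks 2, 4 and 5, against 109.5, 119 and 136 FPKM in sham, and was listed at 0 in 5/6Nx and at 1.28 FPKM in sham at week 7. Both groups of week 7 were thus far below those of the other weeks, and levels are not known to be on 1 scale across weeks. XLOC_004891, 111 bases long, was listed at 0 in 5/6Nx at week 7, against 69.0 FPKM in sham. XLOC_008225 was listed at 1.54 FPKM in 5/6Nx and at 0 in sham at week 5. Of the 6, only XLOC_013028, described below, was called.

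The authors' test called 28 members in at least 1 week, 3 of them in 2 weeks and 0 in 3 or more. At week 2 it called 0 of 2172, as it did for 0% of all 14115 tested loci. At an unadjusted p under 0.05 there were 57 members at week 2 (2.62%), against 2.77% of all tested loci. The smallest q of that week in the authors' deposited table, 0.0504, belonged to XLOC_017886, among others. This 36.8 kb locus 22.7 kb from Max, which encodes the dimer partner of Myc, had 5.67 FPKM in 5/6Nx and 2.29 FPKM in sham. At week 4 the test called 4 members (0.184%), against 0.334% of all tested loci. They were 2 higher and 2 lower in 5/6Nx (0.0921% each), against 0.177% and 0.156% of all tested loci. At week 5 it called 5 members (0.230%), against 0.55%, and these were 5 higher (0.396% of all tested loci) and 0 lower (0.154% of all tested loci). At week 7 it called 22 (1.01%), against 1.75% of all tested loci and 184 named loci (1.93%). At an unadjusted p under 0.05 there were 117, 83 and 198 members at weeks 4, 5 and 7 (5.39%, 3.82% and 9.12%), against 5.47%, 4.44% and 10.8% of all tested loci. No share of called members was above that of all tested loci in these weeks and directions except that of the lower calls of week 7.

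At week 7 the calls of unnamed loci were split evenly, 11 higher and 11 lower in 5/6Nx, while those of named loci were 155 higher and 29 lower. As shares, 0.506% of unnamed loci were called higher, against 1.43% of all tested loci, and 0.506% were called lower, against 0.315%. The difference between these splits was not tested. Of the 28 called members, 24 had coordinates of their own, as had 1656 of all 2172 members. Within 5 kb of a named locus lay 6 of the 28, against 34.8% of all members. More than 50 kb from one lay 10 of the 28, against 27.3% of all members. At 5 FPKM or more in the larger group of every week were 9 of the 28, against 893 of the 2172. Both groups reached 1 FPKM in every week in 24 of the 28, against 1938 of the 2172. None of these shares was tested. The other called members met the condition through 1 group in the week of a call. These were XLOC_002361 and XLOC_020934 through 5/6Nx at week 5, and XLOC_013028 and XLOC_016672 through sham at week 7.

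**Figure D4:**
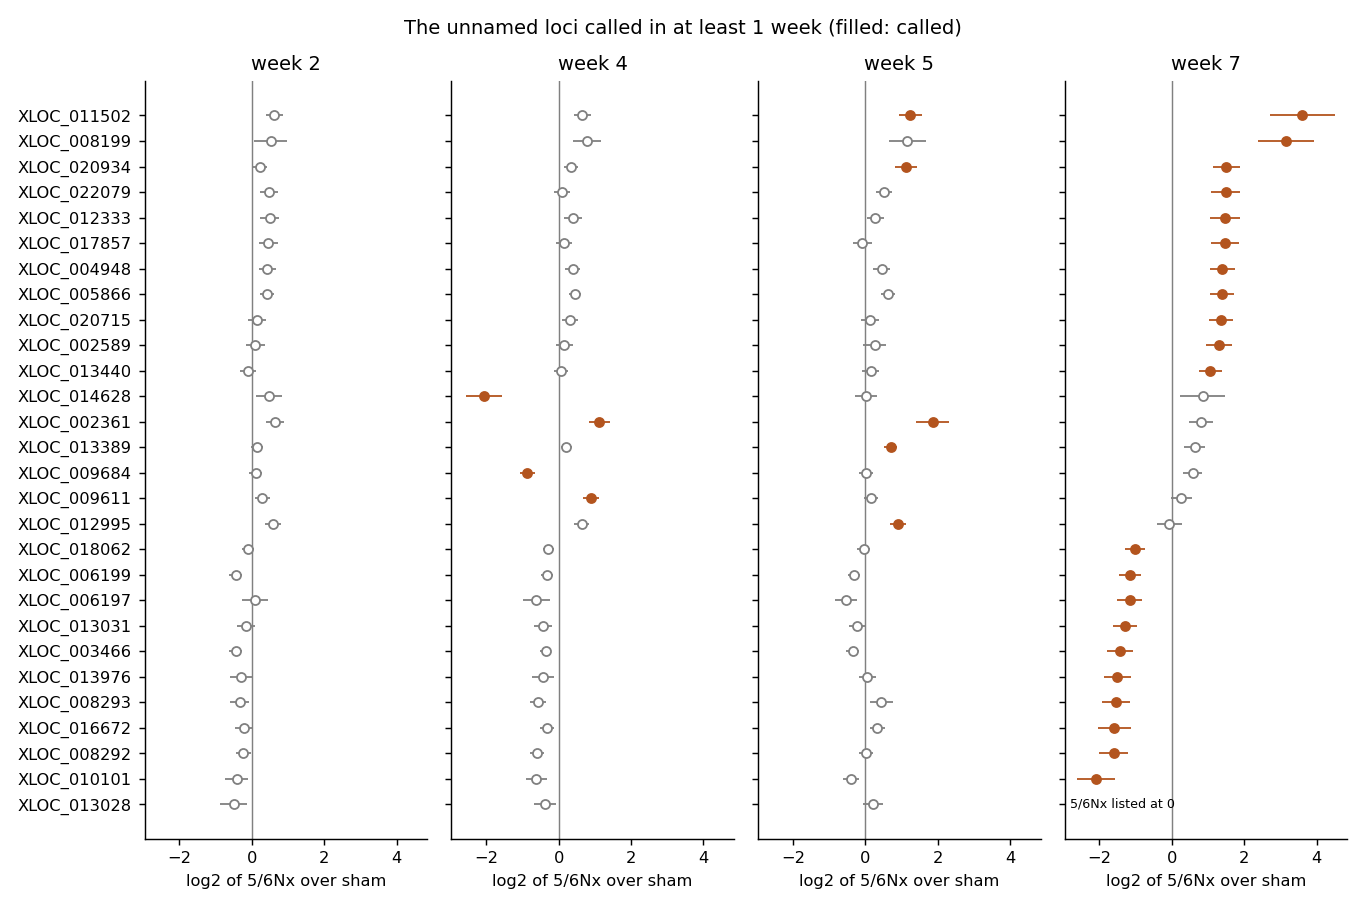
Log2 of 5/6Nx over sham with its derived standard error for the 28 unnamed loci called in at least 1 week, by week, ordered by week 7. Filled orange points are called and open points are not. At week 7, 11 loci are called higher, up to 3.60 for XLOC_011502, and 11 lower, of which XLOC_013028 has no ratio because 5/6Nx is listed at 0.

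The largest called rise was at XLOC_011502, 42.0 kb at chr2:41549113-41591138. It had 13.9, 13.7, 16.8 and 106 FPKM in 5/6Nx ventricles at weeks 2, 4, 5 and 7, against 9.06, 8.67, 7.08 and 8.70 FPKM in sham ventricles. All 4 values in 5/6Nx were above those in sham, and the locus was called at weeks 5 and 7, with log2 of 1.25 (standard error at most 0.31) and 3.60 (at most 0.89), a 12.1-fold difference. Its flanks are Serinc5, a serine incorporator of membranes 32.7 kb away, and Papd4, a cytoplasmic poly(A) polymerase. The log2 of both was at most 0.32 in size in every week. The genes of GRCr8 between these flanks that matched no symbol are Thbs4, a thrombospondin of the extracellular matrix, Mtx3, a mitochondrial import protein, and Cmya5, a large striated muscle protein.

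XLOC_008199, 15.7 kb at chr15:62602609-62618353, had the next largest. Its levels were 2.36, 3.38, 2.48 and 37.1 FPKM in 5/6Nx, against 1.65, 1.96, 1.11 and 4.20 FPKM in sham. It was higher in 5/6Nx in all 4 weeks and called at week 7 (log2 3.14, standard error at most 0.77). The nearest named locus, Serp2, is 202 kb away, and Lacc1, Ccdc122 and Enox1 lie between its flanks in GRCr8. Lacc1 encodes an enzyme known from macrophages. At week 7 the 4 macrophage markers summed to 682 FPKM in 5/6Nx, against 149 FPKM in sham, and 3 of the 4 were called higher. Most of both sums was Lyz2, with 608 FPKM in 5/6Nx and 118 FPKM in sham. Csf1r, the marker not called, had 18.5 FPKM in 5/6Nx and 11.7 FPKM in sham. The part of such cells in the results of week 7 was not tested, and in whole tissue more cells of a type and more RNA per cell cannot be told apart.

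XLOC_020934, 54.1 kb at chr8:86584553-86638632, was the other member called at weeks 5 and 7. It had 3.49, 2.82, 1.40 and 9.08 FPKM in 5/6Nx, against 3.00, 2.24, 0.641 and 3.21 FPKM in sham, and so was higher in every week. Its log2 was 1.13 at week 5 and 1.50 at week 7. Its flanking loci, LOC367117 and LOC100363289, could not be matched in order to GRCr8.

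The remaining rises of week 7 had log2 between 1.06 and 1.48. XLOC_002589, at chr1:234981646-234995071, lies 0.708 kb from Ms4a6b, a membrane protein of the MS4A family found on immune cells, and had 8.83 FPKM in 5/6Nx and 3.60 FPKM in sham at week 7. Its log2 was 1.29 ± 0.37 (standard error), and that of Ms4a6b was 0.84. XLOC_005866, at chr12:8808018-8836172, had 16.6, 14.3, 16.3 and 26.4 FPKM in 5/6Nx, against 12.5, 10.4, 10.6 and 10.2 FPKM in sham. It was above sham in every week, and Medag, a gene linked to adipocyte differentiation, lies between its flanks in GRCr8 with Rpl28-ps11.

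XLOC_020715, at chr8:43302121-43322833, sits between the olfactory receptor genes Olr1307 and Olr1308 and had 32.3 FPKM in 5/6Nx and 12.6 FPKM in sham at week 7. The only candidate of GRCr8 between its flanks is Vwa5al1. XLOC_022079, 2.92 kb at chr9:95489628-95492544, had 6.74 FPKM in 5/6Nx and 2.41 FPKM in sham at week 7, and its only candidate is Arl4c, a small GTPase. XLOC_012333, at chr20:5792485-5799333, had 4.07 FPKM in 5/6Nx and 1.47 FPKM in sham, and its only candidate is Cdsn, an adhesion protein of the epidermis. These loci were above sham in all 4 weeks as well, with calls at week 7 only.

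The last 3 rises of week 7 were XLOC_004948 (chr11:3097228-3148631), XLOC_017857 (chr6:103198684-103212545) and XLOC_013440 (chr3:120357997-120426712). XLOC_004948 had 4.56 FPKM in 5/6Nx and 1.74 FPKM in sham and was above sham in every week. XLOC_017857 had 6.69 FPKM in 5/6Nx and 2.42 FPKM in sham at week 7, and was below sham at week 5. XLOC_013440 had 12.6 FPKM in 5/6Nx and 6.06 FPKM in sham, and was below sham at week 2.

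The lower calls of week 7 included the 2 called members of highest mean level. XLOC_003466, 18.5 kb at chr10:54098442-54116892, had 95.1, 104, 134 and 21.9 FPKM in 5/6Nx ventricles, against 130, 134, 171 and 59.2 FPKM in sham ventricles. It was lower in 5/6Nx in all 4 weeks, with log2 of -0.45, -0.36, -0.35 and -1.44, and called at week 7. Between its flanks, Glp2r and Usp43, GRCr8 has Gsg1l2 and Dhrs7c, the second a sarcoplasmic reticulum enzyme of striated muscle. XLOC_018062, 22.7 kb at chr6:146191166-146213877, had 145, 140, 241 and 40.8 FPKM in 5/6Nx, against 156, 171, 248 and 82.6 FPKM in sham. It too was lower in every week, and its log2 at week 7 was -1.02 ± 0.27 (standard error). It lies 3.20 kb from Siva1, an apoptosis regulator whose own log2 at week 7 was -0.13. Inf2, a formin, and Adss1, the muscle form of adenylosuccinate synthase, lie between its flanks in GRCr8.

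XLOC_016672, at chr5:157904132-157926189, had 0.958 FPKM in 5/6Nx and 2.89 FPKM in sham at week 7 (log2 -1.59 ± 0.46, standard error). At week 5 it was above sham, with 5.53 against 4.37 FPKM. Myom3, a protein of the sarcomeric M-band, lies between its flanks with LOC120103104. XLOC_013976, at chr3:57726819-57766496, had 8.53 FPKM in 5/6Nx and 24.35 FPKM in sham at week 7, with Cobll1 and Slc38a11 between its flanks. At week 7 the listed ventricular myocyte markers were all lower in 5/6Nx, with 0 of 7 called, and their part in these results was not tested.

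Some lower calls came as pairs of neighbouring members. XLOC_008292 and XLOC_008293 lie 1.17 kb apart on chromosome 15, beside Mir3546. XLOC_008292 had 3.94 FPKM in 5/6Nx and 12.04 FPKM in sham at week 7, and XLOC_008293 had 4.10 FPKM in 5/6Nx and 11.9 FPKM in sham. Both were also below sham at weeks 2 and 4, and above it at week 5. XLOC_006197 and XLOC_006199 lie 1.42 kb apart on chromosome 12, between Ccdc63 and Sh2b3, an adaptor of cytokine signalling. XLOC_006197 had 17.7 FPKM in 5/6Nx and 39.7 FPKM in sham at week 7, and XLOC_006199 had 8.58 FPKM in 5/6Nx and 19.1 FPKM in sham. The log2 of both was -1.16. Whether the loci of a pair are pieces of 1 transcript was not tested.

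The other lower calls of week 7 were XLOC_010101, XLOC_013031 and XLOC_013028. XLOC_010101, at chr18:67924778-67989826, had 2.89 FPKM in 5/6Nx and 12.3 FPKM in sham (log2 -2.09, standard error at most 0.52) and was below sham in all 4 weeks. Its coordinates are shared with other identifiers. XLOC_013031 had 5.55 FPKM in 5/6Nx and 13.6 FPKM in sham, and was also below sham in all 4 weeks. XLOC_013028, at chr3:14474065-14482032, was listed at 0 in 5/6Nx and at 1.39 FPKM in sham. At week 5 it had 5.94 FPKM in 5/6Nx and 5.15 FPKM in sham.

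At week 4 the 4 called members were XLOC_002361, XLOC_009611, XLOC_009684 and XLOC_014628. XLOC_002361, 23.5 kb at chr1:214928975-214952450, had 1.56, 2.31, 1.08 and 2.96 FPKM in 5/6Nx ventricles, against 1.01, 1.06, 0.299 and 1.70 FPKM in sham ventricles. It was above sham in all 4 weeks and called at weeks 4 and 5, with log2 of 1.13 (standard error at most 0.28) and 1.86 (at most 0.46). It lies 6.57 kb from Ptpre, a tyrosine phosphatase, and its other flank is Mgmt, a DNA repair enzyme. Mki67, the gene of the proliferation marker Ki-67, and LOC134484916 lie between these flanks in GRCr8.

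Of the others of week 4, XLOC_009611 was above sham in every week, and XLOC_009684 and XLOC_014628 did not keep their direction. XLOC_009611, at chr17:39476635-39481872, had 4.70 FPKM in 5/6Nx and 2.54 FPKM in sham at week 4, and log2 values of 0.29, 0.17 and 0.25 at weeks 2, 5 and 7. XLOC_009684, at chr17:88117580-88120676, had 8.78 FPKM in 5/6Nx and 15.9 FPKM in sham at week 4, but 25.6 and 17.3 FPKM at week 7. XLOC_014628, at chr3:183062231-183064625, had 1.27 FPKM in 5/6Nx and 5.26 FPKM in sham at week 4, a log2 of -2.06, and was above sham in the other 3 weeks.

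At week 5 all 5 calls were higher in 5/6Nx. Besides XLOC_002361, XLOC_011502 and XLOC_020934 these were XLOC_012995 and XLOC_013389. XLOC_012995, 30.4 kb at chr3:10986875-11017274, had 11.8, 12.4, 14.9 and 4.18 FPKM in 5/6Nx, against 7.86, 7.93, 7.99 and 4.40 FPKM in sham. It was above sham at weeks 2, 4 and 5, with a called log2 of 0.90 at week 5, and not at week 7. The only candidate between its flanks, Tmem8c and Fam163b, is Adamtsl2, a secreted glycoprotein of the extracellular matrix. XLOC_013389, 9.69 kb at chr3:112087767-112097458, lies 1.38 kb from Actc1, the cardiac alpha-actin gene. It had 38.9, 39.8, 41.7 and 140 FPKM in 5/6Nx, against 35.3, 34.2, 25.6 and 90.4 FPKM in sham. It was above sham in every week, while the log2 of Actc1 was -0.05, -0.19, 0.09 and -0.37. GRCr8 has no candidate between its flanks.

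Markers of other cell types differed in the same comparisons. At week 4, 3 of 4 adipocyte markers were called lower (summed level 5.06 FPKM in 5/6Nx, against 16.9 FPKM in sham), 2 of 4 atrial markers were called lower (347 against 639 FPKM) and 3 of 5 fibroblast and matrix markers were called higher (1642 against 1342 FPKM). At week 5, 3 of 3 red cell markers were called higher (12808 FPKM in 5/6Nx, against 6349 FPKM in sham) and 3 of 4 adipocyte markers lower (3.94 against 48.8 FPKM). These sums are over all 4 adipocyte markers. Most of that sham sum was Ucp1, which was not called, with 0.0361 FPKM in 5/6Nx and 30.2 FPKM in sham. At week 7, 2 of 3 red cell markers were called higher (3973 FPKM in 5/6Nx, against 2131 FPKM in sham) and 2 of 4 atrial markers lower (139 against 346 FPKM). At week 5 the atrial markers summed to 407 FPKM in 5/6Nx and 347 FPKM in sham, with 0 called. Also called higher was 1 of 5 fibroblast and matrix markers at weeks 5 and 7. At week 5, 1 of 4 macrophage and 1 of 3 neutrophil and mast cell markers were called higher. At week 7, 1 of 3 skeletal muscle markers was called lower. This was Ckm, with 173 FPKM in 5/6Nx and 333 FPKM in sham. Myh1, another marker of that list, had at most 0.0173 FPKM in any group, so the call is not read as a sign of skeletal muscle. The adipocyte marker Ucp1 was listed at 0 in both groups of week 7. The part of these cells in the calls of unnamed loci was not tested.

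The share of members that kept 1 direction through all weeks was below that of named loci. Of 2166 with a ratio in every week, 208 (9.60%) were above sham in all 4 and 346 (16.0%) below, 25.6% together, against 29.8% of 9526 named loci. With the columns of week 7 exchanged, an alternative chosen after seeing the data, 100 members were above sham in all 4 weeks and 154 below, 11.7% together, against 11.7% of named loci. Each week had its own sham group. Across the members, log2 values of different weeks correlated with Pearson's r between 0.13 and 0.24 (n = 2166), against 0.28 to 0.37 over named loci (n = 9526). Loci of a week share their libraries and depth, so these values are descriptions. Of the 22 members called at week 7, 14 had the same direction at weeks 2, 4 and 5, and with the columns of week 7 exchanged 0 would have it. The same count was not taken over the called named loci, so it is not shown to be particular to members.

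By the size of the smallest of the 4 log2 values, the members most steady in direction included XLOC_011502, XLOC_008199 and XLOC_002361, described above, and 7 that were called in no week. XLOC_014354, at chr3:126108809-126128423, had 1.12, 1.10, 1.24 and 1.30 FPKM in 5/6Nx, against 0.529, 0.618, 0.407 and 0.655 FPKM in sham. It was a member through 5/6Nx alone, since sham was below 1 FPKM in all weeks, and the only candidate between its flanks is Ncaph, a condensin subunit of dividing cells. XLOC_009877, at chr18:61417962-61425035, had 3.74, 3.00, 2.74 and 5.89 FPKM in 5/6Nx, against 1.91, 1.67, 1.61 and 3.49 FPKM in sham. The log2 of both was at least 0.76 in every week. XLOC_003113, 0.160 kb from the homeobox gene Tlx1, and XLOC_007052 were also above sham throughout. XLOC_003113 too was a member through 5/6Nx alone, with 1.28, 1.09, 1.38 and 1.65 FPKM in 5/6Nx, against 0.906, 0.651, 0.700 and 0.903 FPKM in sham, and XLOC_007052 was one at week 5. Being above sham in those weeks is in part set by the condition on abundance.

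XLOC_010951, XLOC_018298 and XLOC_000952 were below sham in all weeks. XLOC_010951, at chr2:76075179-76076828 between Osmr and Lifr, which encode receptors of the interleukin-6 family, had 2.18, 2.36, 1.80 and 1.81 FPKM in 5/6Nx, against 3.42, 4.03, 3.49 and 5.87 FPKM in sham. Osmr had a log2 of 1.22 at week 7 and the member -1.69.

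At week 7 the log2 of members correlated weakly with that of a near named locus. For members within 5 kb of a passing named locus without overlap, Spearman's rho of both log2 values was 0.28 (488 pairs), and 59.8% of pairs had the same direction. It was 0.31 for overlapping pairs (115), 0.07 at 5 to 50 kb (521) and 0.08 beyond 50 kb (370). At weeks 2, 4 and 5 the value within 5 kb was 0.01, 0.08 and 0.10. Named loci and their nearest named locus within 5 kb had 0.21 at week 7 (1460 pairs). Pairs of neighbouring members within 5 kb had 0.35 (176 pairs). These correlations are across loci measured in the same libraries and are given without a p.

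**Figure D5:**
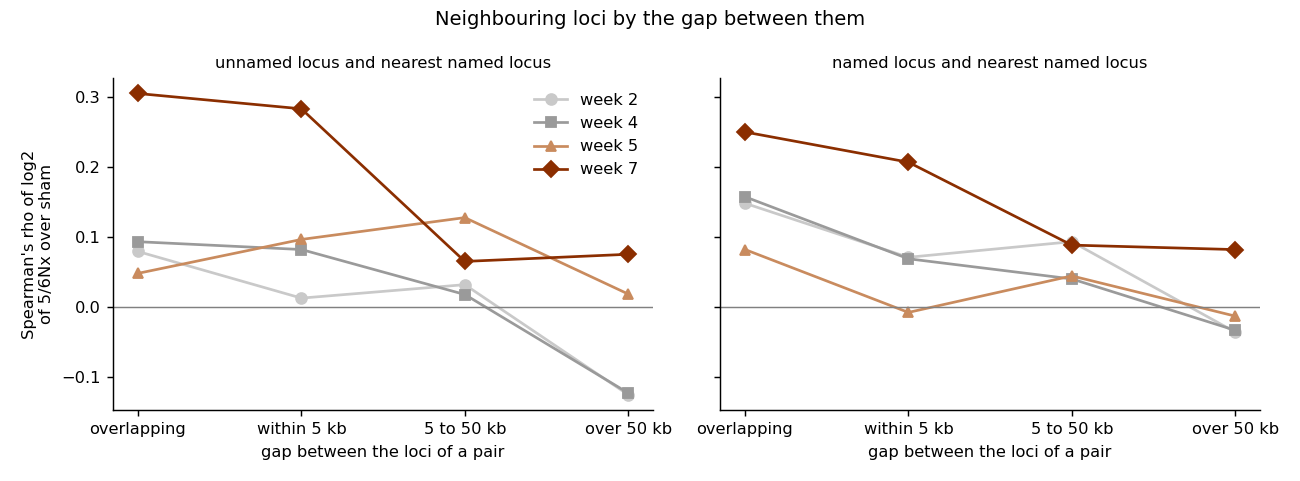
Spearman's rho between the log2 of 5/6Nx over sham of a locus and that of its nearest named locus, by the gap between them and by week, for unnamed loci (left) and named loci (right). At week 7 rho is 0.31 and 0.28 for overlapping and nearby unnamed loci and at most 0.08 beyond 5 kb.

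A near pair left out of those correlations is XLOC_006641, 3.58 kb at chr13:72312302-72315887, and Ptgs2, the gene of inducible cyclooxygenase, 0.348 kb away. Ptgs2 did not meet the condition on abundance, with 0.420 FPKM in 5/6Nx and 0.315 FPKM in sham at week 5. XLOC_006641 had 1.10, 1.45, 1.43 and 2.56 FPKM in 5/6Nx, against 0.609, 0.618, 1.05 and 0.335 FPKM in sham. It was above sham in all 4 weeks, with a log2 of 2.94 ± 1.74 (standard error) at week 7, and was not called. At weeks 2, 4 and 7 it met the condition on abundance through 5/6Nx alone. Its direction in those weeks is thus in part set by that condition. The log2 of Ptgs2 at week 7 was 2.44. XLOC_015832 has the coordinates of Gata2, a transcription factor of blood and endothelial cells, and had 4.28 FPKM in 5/6Nx and 0.591 FPKM in sham at week 7 without a call. It too met the condition at week 7 through 5/6Nx alone.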

How the data were processed

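The FPKM, p-values, q-values and test scores per locus are as deposited by the authors, 1 table per week with 1 value per group. The headers do not state the FPKM unit, which was inferred from Cuffdiff. Tools listed in the submitters' processing notes were Cuffdiff, Cufflinks 2.0.10, TopHat2 2.0.10 and cutadapt, with the build rn5. Counts of reads per library and percent mapped come from another deposited table. Libraries were stranded total RNA, per the labels' protocols.

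Tables were joined on locus identifier with Python 3.11.15 and pandas 2.3.3. At week 7, 313 repeated rows were joined, and 7 rows without identifier or with other coordinates were left out. Log2 used no pseudocount, and length is end minus start. The standard error is the size of the log2 over the normal quantile that matches the deposited p. It and the neighbour search were tested on simulated data. A model per library was planned and could not be fitted to these tables.

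The rule for names took the called members, the 10 highest, the 5 largest and 5 smallest log2 per week, the 10 steadiest in direction, the 5 longest and shortest, and 5 on each side of the minimum; not all are printed. Members listed at 0, the Ttn interval and the pair with Gata2 were picked after their values were seen. Members and lists were chosen with earlier results of these data known.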

Additional observations from a re-analysis of the deposited data

How the results depend on the processing

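Directions rest on 1 deposited value per group, and the 2 pools per group limit every call. Fits that leave out a library or add a replicate block were not run. No paired analysis was possible because the tables hold no column per library. The upper quartile of the derived standard error of members was 0.53 at week 7, so 2-fold differences of such members are within about 2 standard errors. Depth per locus is not given by the tables, so no counting interval is printed.

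The cause of a change with a setting was not tested unless its construction shows it (fewer loci, another distance). Counting date symbols as unnamed (2188 members), asking for no symbol in all 4 tables or for equal coordinates (2172 members each) moved no result beyond its interval or 1.5 times its count. Of the values for members under an alternative, 186 stayed within those bounds, 52 moved and 1 reversed, and the moved and reversed ones follow. Of the values for named loci, 129 stayed and 23 moved, and these are not all listed. At a minimum of 5 FPKM, for instance, 3.00% of named loci were at least 2-fold apart at week 7, and 36.5% were above sham at week 4. A minimum of 0.5 FPKM, or none, gave 2362 members in both cases and a median level of 5.42 FPKM. A minimum of 2 FPKM gave a median of 8.71 FPKM, 1.06% and 7.08% at least 2-fold at weeks 2 and 7, 43.7% above sham at week 4, and 3 calls at week 5.

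A minimum of 5 FPKM left 893 members with a median of 16.5 FPKM. Above sham were then 34.9% and 40.0% at weeks 2 and 4, and the median log2 at week 4 was -0.058. At least 2-fold were 1.12% and 5.72% at weeks 2 and 7. The calls were 1, 2 and 7 at weeks 4, 5 and 7, the same direction in all weeks was kept by 28.1%, and rho with the nearest named locus was 0.046 and 0.14 at weeks 2 and 5.

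With a pseudocount of 1, 0.737%, 0.645%, 0.967% and 4.60% were at least 2-fold at weeks 2, 4, 5 and 7. Centred on the median of named loci, 43.0% and 50.6% were above sham at weeks 2 and 4. At a deposited q below 0.01 the calls were 0, 0 and 14 at weeks 4, 5 and 7. At a q below 0.10 they were 4, 7 and 8 at weeks 2, 4 and 5. At an unadjusted p below 0.05 they were 57, 117, 83 and 198. Adjusted only over loci with at least 1 FPKM, 3 members were called at week 2.

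Between midpoints the median distance was 56.2 kb, with 7.23% within 5 kb. Among named loci that met the same conditions it was 25.1 kb, with 29.5%. Restricted to pairs within 5 kb, rho was 0.080 and 0.29 at weeks 4 and 7, and beyond 50 kb it was -0.13, -0.12, 0.018 and 0.075 at weeks 2, 4, 5 and 7. With the columns of week 7 exchanged, the median log2 was 0.049, and 11.7% kept 1 direction in all weeks, an alternative chosen after seeing the data. With week 2, 4, 5 or 7 left out, 37.7%, 36.4%, 37.5% or 37.3% kept 1 direction over the other 3 weeks.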
